A study of Citrus x aurantiifolia with 4 samples.

Results

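In leaves of acid lime made to overexpress a Putranjiva roxburghii trypsin inhibitor, 109 assembled genes, each the only one of its read cluster to reach a value of 1, had less RNA than in leaves of the wild type. Leaf RNA of the transgenic plants (TG, 2 libraries) was compared with that of wild-type plants (WT, 2 libraries), all of Citrus x aurantiifolia, cultivar Pramalini. The transgenic plants were selected by PCR for the introduced gene. The labels used here do not give the promoter, the number of transformed lines or the number of plants behind a library, so the spread between the libraries of a genotype may be technical.

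Trypsin inhibitors are small proteins that block serine proteases, and plants hold them in seeds and leaves as a defence against insects and pathogens. Overexpression of such an inhibitor is used in crops to raise tolerance to pests and other stresses. The reads were counted on transcripts assembled de novo, in which a read cluster gathers related sequences and divides them into genes and isoforms. In such an assembly, alleles or near copies of a locus can be split into several genes of a cluster, so that a gene may seem lost where only its reads went to a partner. A gene that has no expressed partner in its cluster and keeps its most-read isoform is open to fewer such splits. The files give neither names nor sequences for the assembled genes, so what these loci encode is not stated here. Their IDs are labels of the de novo assembly. That 0 of them matched the gene list of key lime (assembly Mxlime_USDA_v1) therefore says nothing about the loci.

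The loci were chosen on the measured values themselves. Of 81380 genes, 24118 were the only one of their read cluster with a value of 1 or more in any library, 23776 of them had isoforms in the table of reads, and 4436 had 50 or more reads in every library. The same isoform was the most read in all 4 libraries for 3257 of these, called single-gene loci here. In 136 of them the lower WT value was at least 2 times the higher TG value, and in 109 the same held for CPM, the reads scaled to the library's column sum. These 109 are the lowered loci, and all of them were measured in every library. They are 3.35% of the single-gene loci. The mirrored rule found 49 raised loci (1.5%). Among all 15827 genes with 50 reads in every library, whatever their cluster, the same folds were met by 601 lower genes (3.8%) and 336 higher genes (2.12%). Because the rule used the TG and WT values, the difference between genotypes is described below and not tested. The value is the authors' TMM-scaled TPM, an abundance corrected for transcript length and depth and then scaled between libraries.

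The part of the isoform table used here held 17309047 and 15729398 reads for TG 1 and TG 2, and 13203570 and 16935804 for WT 1 and WT 2. Over the 3257 single-gene loci the libraries of a genotype differed by more than counting error, with a chi-square per degree of freedom of 81.3 between the TG libraries and 43.2 between the WT libraries. The median single-gene locus had a log2 difference of 0.02 by value and -0.07 by CPM, TG minus WT. For the lowered loci WT 2 stood above WT 1, as set out below, and results that depend on it are given without each library.

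In TG the lowered loci ranked among the scarcer transcripts, while in WT their median was near that of other single-gene loci. Their median value was 4.28 in TG 1 and 4.96 in TG 2, against 18.5 in WT 1 and 22.7 in WT 2. The lower quartile of all single-gene loci was 9.43 in TG 1 and 9.12 in TG 2, above the median of the lowered loci. Over all single-gene loci the medians were 19.1 and 18.1 in the TG libraries and 18.5 and 19.1 in the WT libraries. The lowest and highest values of a lowered locus were 0.70 and 369 in TG 1, 0.767 and 261 in TG 2, 1.69 and 1321 in WT 1, and 2.22 and 2381 in WT 2. The mean value was under 10 for 85 of the 109 loci in TG, against 21 in WT. A mean of 100 or more was found for 4 loci in TG (3.67%, against 6.69% of the single-gene loci) and for 14 in WT (12.8%, against 5.68%). The upper quartile in WT 2 was 53.8 for the lowered loci and 35.8 for all single-gene loci, so the upper part of the lowered loci was more abundant in WT 2. In bulk leaf RNA, fewer cells of a type and less RNA per cell cannot be told apart.

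**Figure D1:**
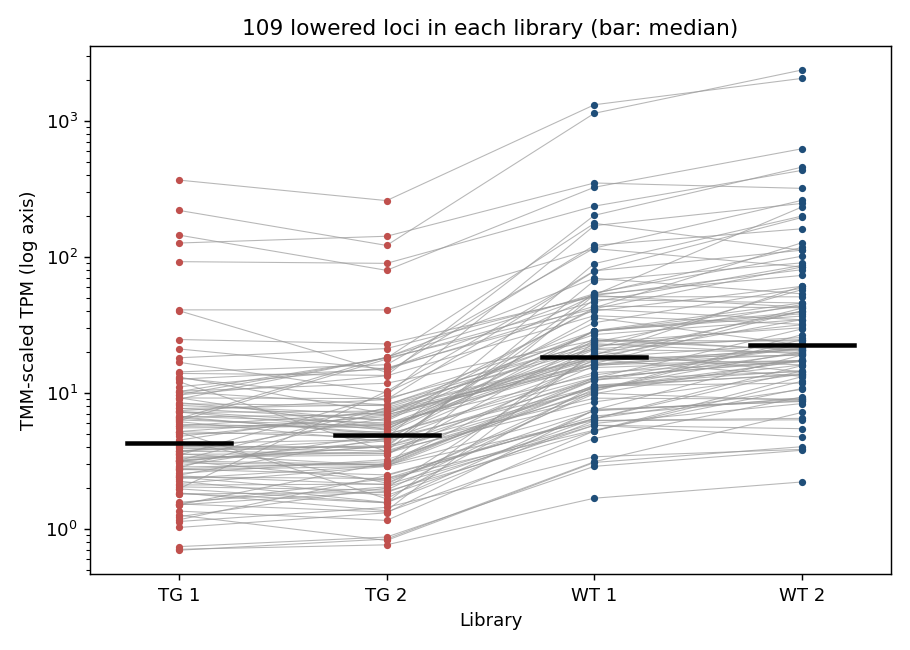
TMM-scaled TPM on a log axis of the 109 lowered loci in the 2 TG libraries (red) and the 2 WT libraries (blue). Each point is a locus, lines join the values of a locus, and black bars are the medians, which were 4.28 and 4.96 in TG 1 and TG 2 and 18.5 and 22.7 in WT 1 and WT 2.

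The loci took a small share of the reads in each library. They held 42771 reads in TG 1 (0.247%, 95% Wilson interval 0.245% to 0.249%) and 34548 reads in TG 2 (0.22%, 0.217% to 0.222%). They held 121285 reads in WT 1 (0.919%, 0.913% to 0.924%) and 261984 reads in WT 2 (1.55%, 1.54% to 1.55%). These intervals cover counting error only. As the rule demands, the share in either WT library was above that in either TG library. The WT libraries differed from each other more than the TG libraries did. All single-gene loci together held 21% and 21.1% of the reads in TG 1 and TG 2, and 21.4% and 21.3% in WT 1 and WT 2. A few loci carried most of these reads, since the 10 most-read lowered loci of each genotype held 58.1% of the loci's reads in TG and 50.6% in WT.

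Most of the differences were moderate. The ratio of the lower WT value to the higher TG value, which grows as TG falls, had a median of 2.87 and quartiles of 2.36 and 3.98. It was under 3 in 60 of the 109 loci, at least 4 in 27, at least 8 in 9 and at least 16 in 2. Averaged over the libraries, the log2 difference of a locus, TG minus WT, ran from -5.29 to -1.10 with a median of -2.08. By CPM the median was -2.14. The 3 loci just inside the rule had ratios of 2.01, 2.01 and 2.05, and the 3 just outside it by value had 1.99, 1.99 and 1.96. The 3 just outside it by CPM had CPM ratios of 1.9981, 1.9869 and 1.9796.

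**Figure D2:**
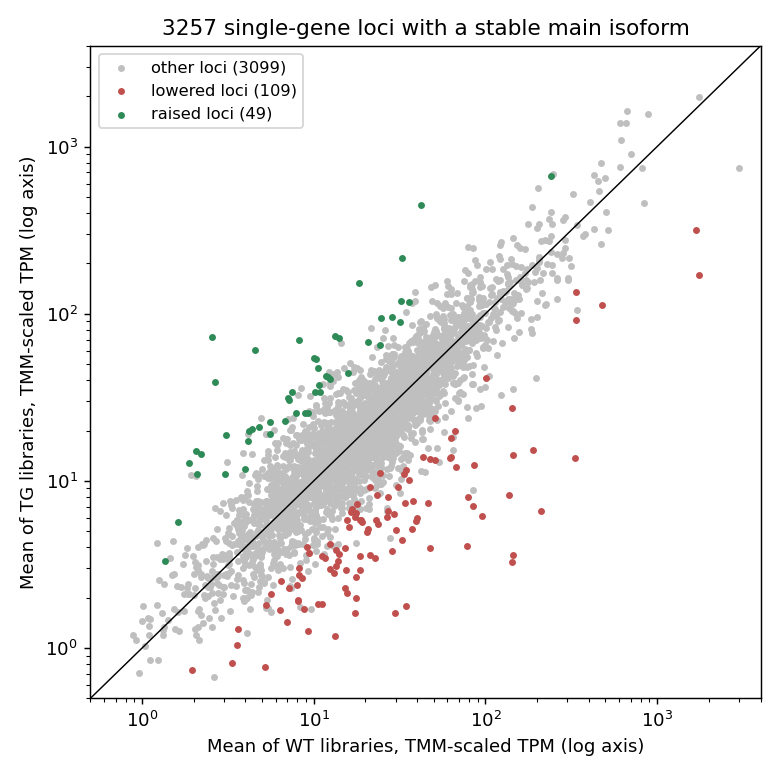
Mean TMM-scaled TPM of the TG libraries against that of the WT libraries, both on log axes, for the 3257 single-gene loci. The 109 lowered loci (red) lie below the line of equal values and the 49 raised loci (green) above it, as the rule demands, and lowered loci are found at low and high levels.

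The locus with the largest ratio was TRINITY_DN15894_c0_g1, a gene that is alone in its read cluster. It had 1 isoform in the part of the isoform table used here. Its values were 2.495 and 4.691 in TG 1 and TG 2, against 89.7 and 201 in WT 1 and WT 2. It averaged 3.59 ± 1.55 in TG and 145 ± 78.6 in WT (SD, n = 2 each). Its reads numbered 84 and 159 in TG 1 and TG 2, against 2536 and 7452 in WT 1 and WT 2, so the TG level rests on few reads but is not at 0. The lower WT value was 19.1 times the higher TG value, and by CPM the ratio was 19.0. Each genotype's libraries also differed from each other, with TG 2 at a log2 difference of 0.91 over TG 1 and WT 2 at 1.16 over WT 1. Without a library, its edgeR log2 difference ranged from -5.75 to -4.58 and kept an adjusted p under 0.05, while the limma adjusted p did not stay under 0.05 without any one of the 4 libraries.

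The other 8 loci with ratios of at least 8 ranged widely in level, with values from 1.24 to 14.0 in TG and from 19.2 to 459 in WT. The locus with the second largest ratio had values of 3.50 and 9.68 in TG and 171 and 249 in WT. The third had 3.58 and 2.93 in TG and 52.8 and 234 in WT, a WT pair that differs over 4 times. The fourth had 14.0 and 13.5 in TG and 203 and 459 in WT.

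Those 4 held 603 or fewer reads in TG when both libraries were summed, and 9712 or more in WT. The fifth had 4.07 and 4.02 in TG and 54.6 and 102 in WT. The sixth had 1.98 and 1.56 in TG and 23.8 and 44.9 in WT. The seventh was the only one of the 9 that was higher in WT 1, with 3.79 and 4.12 in TG and 48.9 and 46.0 in WT. The median over all 9 loci was 3.58 and 4.12 in TG 1 and TG 2, against 54.6 and 196 in WT 1 and WT 2.

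The most-read lowered locus was TRINITY_DN25906_c0_g1, a gene that is alone in its cluster, with 4 isoforms in the part of the isoform table used. It had 10514 and 6390 reads in TG 1 and TG 2, against 17201 and 35575 in WT 1 and WT 2. Its share of all reads was 0.0607% (95% Wilson interval 0.0596% to 0.0619%) and 0.0406% (0.0396% to 0.0416%) in TG, against 0.13% (0.128% to 0.132%) and 0.21% (0.208% to 0.212%) in WT. Its values averaged 315 ± 76.6 in TG and 1693 ± 526 in WT (SD, n = 2 each). The ratio of the lower WT to the higher TG library was 3.58 by value and 2.14 by CPM. Its reads per unit of value were higher in TG by 0.77 on the log2 scale, so the values fell further than the reads. That quotient follows the mean length of the isoforms in use, and also any isoforms beyond the cut of the table of reads. Which of these applied was not tested. By edgeR its log2 difference was -1.56, and -1.20 without WT 2. The adjusted p no longer passed 0.05 without TG 2, without WT 1 or without WT 2, and by limma without any one of the 4 libraries or without the filter on low values.

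Another abundant locus came next by WT reads and had the highest mean value in WT, with values of 221 and 122 in TG and of 1143 and 2381 in WT. Its ratio was 5.18 by value but 2.17 by CPM. The 14 loci with a WT mean of 100 or more had a median value of 27.4 and 17.2 in TG 1 and TG 2, against 174 and 255 in WT 1 and WT 2. They alone held 0.142% and 0.104% of the reads in TG and 0.469% and 0.871% in WT. The 21 loci with a WT mean under 10 had medians of 1.83 and 1.90 in TG and 5.81 and 8.69 in WT. Their median ratio was 2.43, against 5.69 for the abundant 14. A rule on at least 50 reads in every library keeps a scarce locus only if it did not fall far, so the rule itself bounds the ratios of scarce loci. The scarcest locus had values of 0.711 and 0.767 in TG and 1.69 and 2.22 in WT.

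For 15 of the lowered loci the ratios by value and by CPM lay more than 1.5 times apart, as for the most-read locus. The same gap was found in 314 of the 3257 single-gene loci (9.64%). The reads per value, TG against WT, were at least 1.5 times higher in TG for 8 of the 109 lowered loci and at least 1.5 times lower for 5. Of the 3257 single-gene loci, 118 were higher and 130 lower by as much. The median of this shift was 0.01 on the log2 scale for the lowered loci and 0.00 for all single-gene loci.

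The WT libraries differed from each other in the lowered loci far more often in one direction. WT 2 was above WT 1 in 86 of the 109 loci, against 51.2% of the single-gene loci. WT 2 was at least 2 times WT 1 in 25 loci (22.9%), against 2.21% of the single-gene loci. WT 1 was at least 2 times WT 2 in 0 of the lowered loci, against 1.93% of single-gene loci. The median log2 difference, WT 2 minus WT 1, was 0.43 in the lowered loci and 0.01 in all single-gene loci. By CPM it was 0.46 in the lowered loci, with 91 of 109 above 0. The rule compares the lower WT value with TG and does not ask which WT library is the lower, but it used both libraries' values, so these shares are described and not tested.

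**Figure D3:**
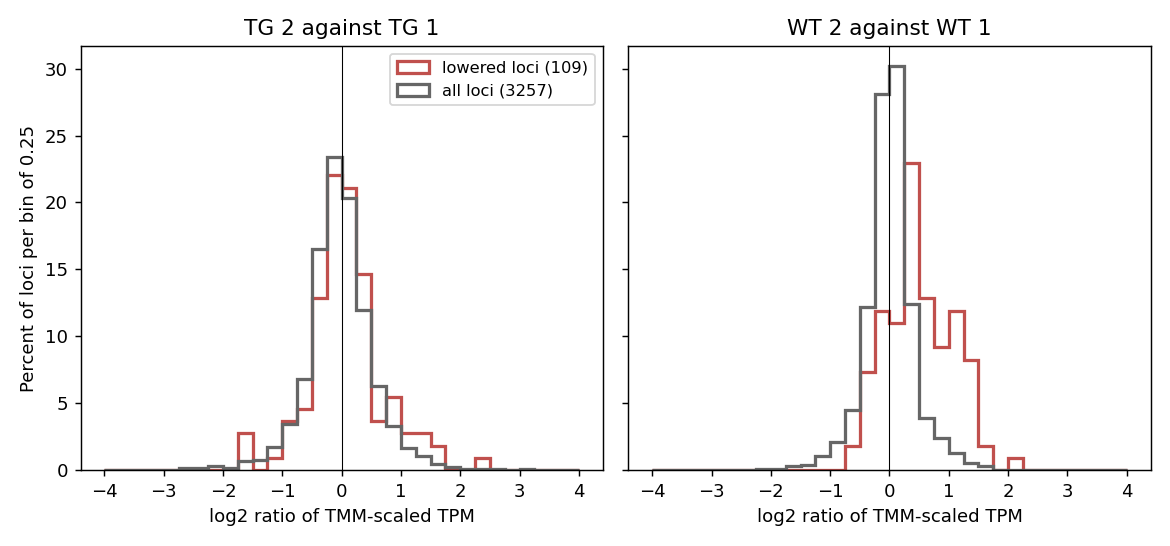
Percent of loci in bins of 0.25 of the log2 ratio between the libraries of a genotype, TG 2 against TG 1 on the left and WT 2 against WT 1 on the right, for the 109 lowered loci (red) and all 3257 single-gene loci (grey). The lowered loci lie around 0 in TG and are shifted to higher values in WT 2, with a median log2 ratio of 0.43.

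The TG libraries leaned less, and the lean depended on the scale. By value TG 2 was above TG 1 in 58 of the 109 lowered loci (53.2%, against 45.6% of the single-gene loci), and the median log2 difference was 0.03, against -0.05 over all single-gene loci. By CPM TG 2 was above TG 1 in 74 loci (67.9%, against 59.99%). TG 2 was at least 2 times TG 1 by value in 9 loci (8.26%, background 3.78%), and TG 1 at least 2 times TG 2 in 4 (3.67%, background 4.18%). By CPM these numbers were 12 and 3. The TG values lay within 1.5 times of each other in 82 loci (75.2%), near the 78.4% of all single-gene loci. The WT values did so in 62 (56.9%), against 86.4% of all single-gene loci. The widest gap in TG belonged to a locus with values of 1.98 and 10.3 in TG 1 and TG 2, against 79.3 and 113 in WT 1 and WT 2. The widest in the other direction had 12.2 and 3.73 in TG and 67.4 and 90.9 in WT. In both cases the TG values stayed well under the WT values, as the rule demands.

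The gap between the WT libraries was found at all sizes of the lowering. WT 2 was at least 2 times WT 1 in 5 of the 9 loci with a ratio of 8 or more, in 5 of 18 with a ratio of 4 to under 8, in 8 of 22 with 3 to under 4, and in 7 of 60 with 2 to under 3. The 25 loci of this kind had median values of 3.15 and 4.06 in TG 1 and TG 2, against 17.7 and 40.4 in WT 1 and WT 2. Set against WT 1 alone, their median log2 difference was -2.07, and against WT 2 alone it was -3.40. The 84 loci whose WT libraries lay within 2 times of each other had -1.66 against WT 1 and -2.03 against WT 2. By the rule, both kinds are low in TG against either WT library. The larger difference against WT 2 follows for the 25 from how they were picked, and it was also found at the median of the 84. The 25 loci took up 0.0614% and 0.0539% of the reads in TG 1 and TG 2, against 0.274% and 0.662% in WT 1 and WT 2.

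**Figure D4:**
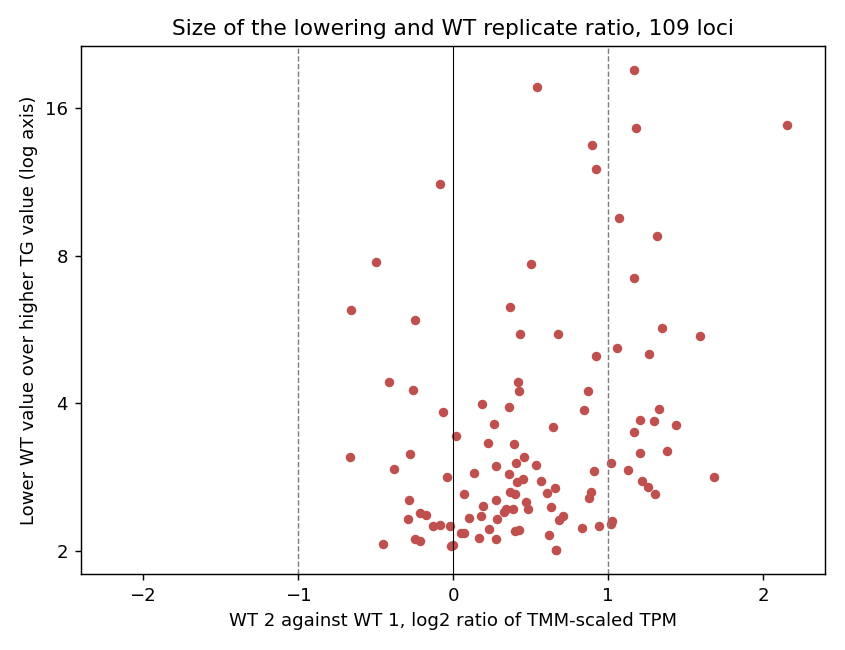
Ratio of the lower WT value to the higher TG value (log axis) against the log2 ratio of WT 2 to WT 1 for the 109 lowered loci, with dashed lines at a 2-fold difference between the WT libraries. Of the 9 loci with a ratio of at least 8, 8 were higher in WT 2, and no lowered locus lies left of the dashed line at -1.

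The raised loci had the opposite order of levels. Their median values were 38.3 and 34.2 in TG 1 and TG 2, against 9.71 and 7.94 in WT 1 and WT 2. WT 2 was above WT 1 in 17 of the 49 raised loci, against 86 of the 109 lowered loci, and WT 2 reached 2 times WT 1 in 0 of them. In TG, the genotype in which they are high, TG 2 was above TG 1 by value in 20 of 49, with a median log2 difference of -0.08. By CPM it was above in 34 of 49, with a median of 0.14. Over all single-gene loci the shares were 45.6% by value and 59.99% by CPM.

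The rule holds partners of a cluster under a value of 1, and few reads fell on them. In 87 of the 109 loci the gene is the only one of its read cluster in the table, and the other 22 clusters hold 29 further genes. All of these together had 39 and 46 reads in TG 1 and TG 2, against 30.1 and 86.5 in WT 1 and WT 2, and none had more than 21 reads in a library. Of the 29, 3 were higher in both TG libraries than in both WT libraries and 4 were lower. Partners assembled into another read cluster could not be looked for without sequences.

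Below the level of the gene, some loci did hold isoforms with reads in a single genotype. Whether these are sequence forms that differ between the plants was not tested. An isoform with at least 10 reads in both WT libraries and 0 in both TG libraries was found in 24 lowered loci, the reverse in 4, and both kinds in 1. In all, 27 loci (24.8%) had an isoform of 1 genotype, against 21.7% of the single-gene loci. Over the single-gene loci the 2 kinds were more even, 386 with a WT isoform and 426 with a TG isoform, and a choice of loci low in TG favours the first. These isoforms held 0.406% and 1.42% of the lowered loci's reads in TG 1 and TG 2, and 2.80% and 3.26% in WT 1 and WT 2. With them left out, 103 of the 109 loci still had a CPM ratio of at least 2. Only the 27 loci with such an isoform could change, and the others kept their ratio by the rule.

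Most isoforms of the loci were lower in TG, which the rule on their summed reads favours, so the counts are a description. The part of the isoform table used here holds 423 isoforms of the 109 loci, of which 310 had at least 20 reads over the libraries. Isoforms beyond its cut were not seen, so isoform numbers, isoform shares and summed reads cover that part only. The most-read isoform alone was at least 2 times lower in TG by CPM in 92 loci, and in 0 loci was it 2 times higher. The 92 include the 26 loci of 1 isoform, for which the rule itself fixes this. Among the 201 other isoforms with 20 reads, 136 were at least 2 times lower and 15 were at least 2 times higher in TG. Those 15 belonged to 14 loci, in which the total fell while a minor isoform gained reads.

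Genes with a single isoform in the part of the table used made up 26 of the lowered loci (23.9%). The share was 13.4% of the single-gene loci and 22.4% of the raised loci. The median number of isoforms was 3 in the lowered loci, 3 in the raised loci and 4 in all single-gene loci. The 26 had a median ratio of 2.45, the 48 loci of 2 to 4 isoforms 3.32, and the 35 of 5 or more isoforms 2.83. The reads per unit of value, scaled to put the median single-gene locus near 1, were 1.06 at the median for the lowered loci and 0.891 for the raised loci.

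Among the 83 lowered loci with several isoforms, the most-read one took a larger share of the reads in TG more often than a smaller one. Its share was higher in both TG libraries than in both WT libraries in 42 loci, or 50.6%, against 34.8% of the single-gene loci with several isoforms. It was lower in both TG libraries in 15 loci (18.1%), against 33.9%. The means lay 10 percentage points or more apart in 34 loci (41.0%), near the 37.3% of all single-gene loci with several isoforms. They were higher in TG by that much in 21 (25.3%, against 17.8%) and lower in 13 (15.7%, against 19.4%). Over all 109 loci the median share was 94.8% and 90.9% in TG 1 and TG 2, against 87.7% and 89.5% in WT 1 and WT 2. Of the 38 raised loci with several isoforms, 16 had a lower share in both TG libraries and 9 a higher one, while by 10 points or more 9 were lower and 8 higher. The read depth of the lowered loci moved with the genotype, with a median of 134 and 150 reads per locus in TG 1 and TG 2, against 457 and 844 in WT 1 and WT 2. Its part in the shares was not tested.

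**Figure D5:**
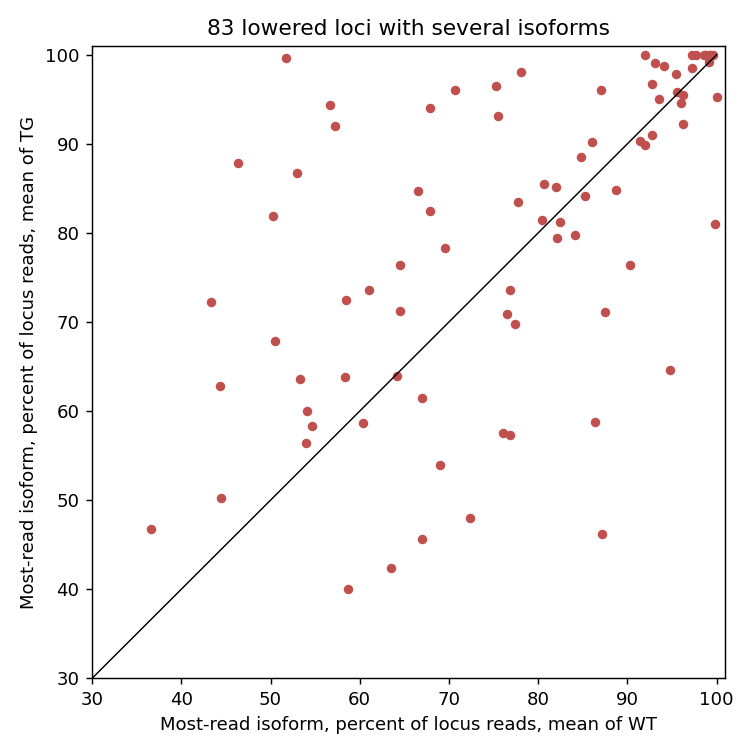
Share of a locus's reads held by its most-read isoform, mean of the TG libraries against mean of the WT libraries in percent, for the 83 lowered loci with several isoforms. Points above the line had a larger share in TG, and in 42 loci both TG libraries were above both WT libraries.

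At the widest, this share was 99.4% and 100% in TG 1 and TG 2 for 1 locus of 3 isoforms, against 55.8% and 47.7% in WT 1 and WT 2. The values of that locus were 24.8 and 23.0 in TG and 51.2 and 51.1 in WT. In the other direction a locus of 5 isoforms had 53.9% and 38.6% in TG, against 89.1% and 85.3% in WT, with values of 2.78 and 3.13 in TG and 11.4 and 13.6 in WT. Both are low in TG by the rule, but the leading isoform held a larger share in TG in the first and a smaller one in the second. edgeR's test of isoform usage (diffSpliceDGE, Simes, Benjamini-Hochberg adjusted p under 0.05) called 33 of the 73 lowered loci it could test, where 56% of all genes and 55.3% of the single-gene loci were called. Without any one of the 4 libraries fewer were called among the lowered loci, the single-gene loci and all genes alike.

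Tests across all genes are given for completeness, since the loci were picked on the same contrast and their calls support nothing. edgeR's quasi-likelihood test on summed reads called 107 of the 109 lower in TG at an adjusted p under 0.05, where 16.5% of all genes tested and 7.31% of the single-gene loci were called lower. limma on log2(value + 1) called 97, where 13.8% of all genes and 5.65% of the single-gene loci were called lower. Neither test called a lowered locus higher. With a library left out, a genotype rests on 1 library and both tests called fewer of the loci, limma only a few. Their median edgeR log2 difference was then -2.09 without TG 1, -1.99 without TG 2, -2.18 without WT 1 and -1.71 without WT 2. By limma it was -1.82, -1.78, -2.04 and -1.55 in that order. With all 4 libraries it was -1.99 by edgeR and -1.81 by limma. The number of loci that met the rule was 109 with all libraries, and 235 without TG 1, 223 without TG 2, 226 without WT 1 and 141 without WT 2, each time with all 109 among them, as a rule with fewer libraries demands less.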

How the data were processed

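Leaf RNA of 4 libraries was sequenced after column extraction, DNase treatment and SMARTER mRNA-Seq preparation, per the labels' protocols. Bowtie2, RSEM and DESeq2 are named per the submitters' processing notes, with no versions; a genome build, strand setting and filters are not given in the sources used here. The authors deposited expected counts per isoform (RSEM, per the file headers), and a normalized signal per gene and per isoform, which is TPM multiplied by TMM factors and holds no depth. The isoform tables end inside a row, which was left out, so isoforms beyond it were not used. A table named gene counts was not used, as its values are the gene signal times a constant.

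Isoform counts were summed per gene, and CPM used column sums. Of the 57 lowered loci with all their isoforms in the isoform signal table, 53 had isoform signals that sum to the gene value within 2% in every library. For tests, counts were rounded and fitted with edgeR 4.0.16 (TMM, filterByExpr with minimum count 10) in R 4.3.3; limma 3.58.1 took log2(value + 1) of genes at 1 or more in 2 libraries. The tests were planned with all 4 libraries, and DESeq2 1.42.0, other filters, a pseudocount of 0.1, a replicate block and left-out libraries were alternatives. The fits were tested on simulated data. p-values are two-sided and Benjamini-Hochberg adjusted. The members and rules were chosen with earlier results of these data known. The 2 loci given by ID are the one with the largest value ratio and the one with the most WT reads.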

Additional observations from a re-analysis of the deposited data

How the results depend on the processing

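The number of lowered loci follows the limits of the rule: 188 at a minimum of 20 reads, 65 at 100 reads, 248 at a ratio of 1.5 and 23 at a ratio of 4. With a library left out it was 141 to 235. It stayed within 1.5 times with other genes of the cluster held under 0.1 (89) or 5 (151). With the limit of 5 the locus itself also had to reach 5, and 105 of the lowered loci were among those 151. The number also stayed within 1.5 times with the most-read isoform left free (151). In alternatives chosen after seeing the data, so it did with the ratio on values only (136), on CPM only (155) or on CPM centred on the median locus (98). edgeR calls among the loci were 62 to 96 with a library left out, and calls over all genes were 3918 to 8073 in place of 9100. limma called 20 of the loci and 1845 of all genes without its filter on low values, in place of 97 and 9018. With a library left out limma called 1 to 6 of the loci and 2340 to 2496 of all genes. Usage calls were 21 to 26 in place of 33, and over all genes 5996 to 8121 in place of 9293. With a TG library left out, most of limma's calls over all genes were higher in TG. With a WT library left out, most of them were lower in TG. The direction of these limma calls thus changed with the genotype that was left with 1 library. The cause was not tested for the filter or for the left-out libraries. With the replicate number as a block, edgeR called 109 of the loci and 5437 of 29263 genes lower. limma called 93 of the loci and 5017 of 34378 genes lower. The usage test, which has no direction, called 33 of 73 loci and 8464 of 16609 genes. Nothing in the labels ties replicate 1 of one genotype to replicate 1 of the other. Their deviations from the group means had Pearson's r of 0.105 over 34378 genes, which are not independent replicates, so the pairing was not taken as the design. Without a composition factor the median edgeR log2 difference over all genes moved to -0.13, against 0.02 with it. Then 109 of the loci and 5135 of all 29263 genes were called lower, against 107 and 4831 with the factor. The loci had as few as 50 reads in a TG library, which limits the precision of the TG level.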
